A study of Mus musculus with 6 samples.

Results

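The aryl hydrocarbon receptor (AHR) complex and the CYP1 enzymes were followed through 7 genes, taken by symbol from the 13595 genes of the deposited table. They were the receptor Ahr, its DNA-binding partner Arnt, the co-chaperone Ptges3, the feedback repressors Ahrr and Tiparp, and the cytochrome P450 genes Cyp1a1 and Cyp1b1. All 7 were present in the table. RNA was sequenced from CD31-positive cells, a selection for an endothelial surface protein, which had been taken from the liver of C57BL6/J mice aged 4 weeks and grown in culture. There were 3 libraries labelled male and 3 labelled female, numbered 4, 5 and 6 in each sex. Every library came from cells given 100 µM indoxyl sulfate, a tryptophan-derived AHR agonist, and held in hypoxia and nutrient deprivation for 6 hours. The only contrast is therefore that of sex under a shared treatment. Cells given the DMSO vehicle were not analysed here, so no value below measures induction by indoxyl sulfate or by hypoxia. Whether same-sex libraries came from separate mice, isolations or wells is not given in the sources used here, and p-values measure only the spread between these libraries.

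AHR rests in the cytosol in a complex with HSP90 and the co-chaperone p23, which Ptges3 encodes. A ligand releases it to the nucleus, where it pairs with ARNT and binds DNA at a short core sequence of target genes, of which Cyp1a1 is the classic one. CYP1 enzymes oxidise many planar aromatic ligands, AHRR competes with AHR for ARNT and DNA, and TIPARP, an ADP-ribosyltransferase, marks AHR for loss. ARNT is also the partner of the hypoxia-inducible factors (HIF), so the hypoxia response and the AHR response draw on one shared subunit.

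The promoters of the 4 AHR-induced members are shown because the same core sequence stands in all of them although their transcripts differed in opposite directions between the sexes. Each line gives the 250 bases before the start of transcription, 5′ to 3′ on the gene's strand, from RefSeq (GRCm38.p6), with every GCGTG core on either strand in capitals, so that CACGC is a core on the opposite strand.
Cyp1a1: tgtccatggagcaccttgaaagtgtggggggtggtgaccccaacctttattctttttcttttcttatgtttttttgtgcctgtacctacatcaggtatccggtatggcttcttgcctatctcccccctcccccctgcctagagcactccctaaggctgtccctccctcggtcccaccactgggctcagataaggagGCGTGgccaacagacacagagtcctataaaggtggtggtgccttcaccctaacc
Cyp1b1: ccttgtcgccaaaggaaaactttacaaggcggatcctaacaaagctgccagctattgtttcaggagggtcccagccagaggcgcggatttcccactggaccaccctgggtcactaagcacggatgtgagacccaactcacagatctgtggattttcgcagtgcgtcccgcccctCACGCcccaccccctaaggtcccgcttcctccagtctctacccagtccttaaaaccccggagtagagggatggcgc
Ahrr: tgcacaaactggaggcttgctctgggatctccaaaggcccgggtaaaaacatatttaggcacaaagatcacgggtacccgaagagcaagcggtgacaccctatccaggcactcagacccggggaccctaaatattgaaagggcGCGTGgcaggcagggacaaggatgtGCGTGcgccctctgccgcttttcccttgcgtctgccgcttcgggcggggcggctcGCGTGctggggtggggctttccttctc
Tiparp: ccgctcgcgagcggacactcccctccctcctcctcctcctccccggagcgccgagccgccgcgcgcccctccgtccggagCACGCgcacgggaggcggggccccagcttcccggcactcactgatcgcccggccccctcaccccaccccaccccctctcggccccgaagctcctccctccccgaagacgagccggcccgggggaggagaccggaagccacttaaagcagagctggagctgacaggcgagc
These windows lie at chr9:57697363-57697612 (plus strand) for Cyp1a1, chr17:79715062-79715311 (minus strand) for Cyp1b1, chr13:74292332-74292581 (minus strand) for Ahrr and chr3:65528197-65528446 (plus strand) for Tiparp. Cyp1a1 held 1 core, which began 54 bases before the start on the gene's strand. The core of Cyp1b1, 76 bases before the start, and that of Tiparp, 170 bases before it, lay on the opposite strand. Ahrr held 3, at 107, 82 and 27 bases before the start, and the one nearest the start was also the only match among the members to the longer form TNGCGTG, which contains GCGTG. Promoters were found for 6 of the 7 members, Ahr being the exception. The windows of Arnt and Ptges3 held GCGTG as well, so that all 6 did, against 28.2% of 32851 promoter windows of this length. TNGCGTG stood in 4.1% of all windows. HIF can bind GCGTG too, and the other form of its core, ACGTG, stood in 16.6% of all windows and in 0 of the 6. These matches are letters in a window and do not show binding.

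Per library, 22303270 to 31189363 reads fell on genes of the table. Values are normalized read counts, that is, whole reads times 1 scaling factor per library, and 1 read is worth between 0.0353 and 0.0475 on this scale. Xist, expressed from the inactive X, ran from 234 to 324 in the libraries labelled female and reached at most 0.458 in those labelled male. All 4 Y-linked genes examined were nevertheless read in every library labelled female, at 17.6 to 57.7, which goes against that label. Ddx3y (47.2 to 76.3 in the male, 48.5 to 57.7 in the female libraries) and Uty were not called (limma adjusted p 0.657 and 0.342). Eif2s3y (55.3 to 61.2 against 29.4 to 30.2, male against female) and Kdm5d (30.7 to 37.5 against 17.6 to 20.8) were lower in the female libraries. "Male" and "female" below mean the labels, and a handling difference that followed them cannot be told apart from sex, since the labels name no batch. Within the male group, male 4 stood apart: the chi-square statistic per gene between libraries was 43.6 and 45.4 for its pairs and 5.98 for male 5 against male 6, while the female pairs gave 4.35 to 9.59. The statistic is near 1 where 1 library is sequenced more than once and lower where its reads are copied, and no pair of libraries was that close.

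CD31 itself was present throughout but uneven. Pecam1, which encodes CD31, stood at 407 ± 16.2 (SD, n = 3) in the male and 73.9 ± 0.540 (SD, n = 3) in the female libraries. Of 20 endothelial markers 17 were tested, and 14 were lower and 2 higher in the female libraries (limma adjusted p under 0.05). For this and the marker counts that follow, the share of all genes called was 69.3%, with 34.6% in each direction. The summed level of the 20 ran from 2608 to 2684 in the male and from 1313 to 1381 in the female libraries. Of 10 sinusoidal markers, those of the liver's own capillaries, 4 were tested, with 3 lower and 1 higher. The sums of the 10 ran from 503 to 540 in the male and from 42.1 to 44.8 in the female libraries. Lyve1 formed most of the male sum, at 498 ± 24.8 in the male against 4.98 ± 0.566 in the female libraries (SD, n = 3). Gata4, the higher one, formed most of the female sum, at 3.75 ± 0.0909 against 32.1 ± 0.858 (SD, n = 3, male against female). Clec4g was at 0 reads in every male and Fcgr2b at 0 in every female library, and both were close to 0 in the other group. The summed level of 7 markers of mesothelium, the cell layer that covers the liver, went the other way. It ran from 116 to 118 in the male and from 423 to 450 in the female libraries. Krt18 alone of the 7 was lower in the female libraries, and it formed most of the male sum. It stood at 96.0 ± 2.20 against 49.7 ± 4.97 (SD, n = 3, male against female). Msln stood at 19.4 ± 1.97 against 332 ± 29.6 (SD, n = 3, male against female), and Upk3b was at 0 reads in every male library. No count of called mesothelial markers is given, since Upk3b, Wt1, Upk1b and Gpm6a were below 1 in every male library and passed the filter on low values through the female ones alone. The same holds in the counts of the other lists for Hand2, a stellate marker, and, through the male libraries alone, for the endothelial Vwf and Robo4 and the stellate Lum. Stellate and mural markers, 17 of 18 listed in the table and 16 tested, were split, with 6 higher and 9 lower in the female libraries. Their sums ran from 2906 to 3745 in the male and from 3582 to 4301 in the female libraries. Acta2 (78.6 ± 47.9 against 1694 ± 187) and Pdgfrb (133 ± 3.76 against 14.3 ± 1.17) moved in opposite directions (SD, n = 3, male against female). Cholangiocyte markers, 7 of 8 tested, were lower for 5 and higher for 1, with sums of 1649 to 2497 in the male and 514 to 616 in the female libraries. Hepatocyte and macrophage markers were scarce. The 8 hepatocyte markers in the table, none of which reached the filter for testing, summed to at most 2.36 in a library, with Cyp3a11 at 0 reads in all 6. Of 11 macrophage markers 2 were tested and both were higher in the female libraries, their sums ran from 7.55 to 9.99 in the male and from 13.2 to 15.8 in the female libraries, and Adgre1, listed as Emr1, was at 0 reads in all 6. None of the 9 lymphocyte markers was analysed here. In such bulk RNA, fewer cells of a type and less RNA per cell cannot be told apart. The part of these marker differences in the results on the AHR genes was not tested.

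**Figure D1:**
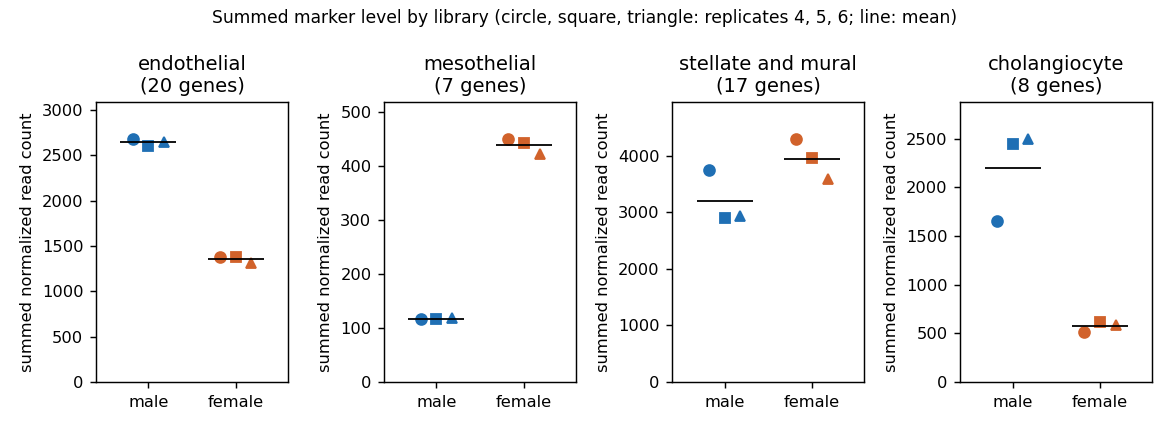
Summed normalized read count (vertical axis) of 4 marker lists in each library, male in blue and female in orange. Points are libraries (circle, square and triangle for replicates 4, 5 and 6) and the line is the group mean. Endothelial and cholangiocyte sums were lower and mesothelial sums higher in all 3 female libraries, and the stellate and mural sums of the groups overlapped.

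The contrast of sex reached most of the transcriptome, which sets the scale for the members. Of 12568 genes that passed the filter on low values (at least 1 in at least 3 libraries), 69.3% had a limma adjusted p under 0.05, 34.6% higher and 34.6% lower in the female libraries. This even split moved with the scaling, to 55.8% higher among the genes called when values were scaled to the library total and 55.4% with quantile normalization. All 7 members passed the filter, Cyp1a1 and Ahrr through the female libraries alone, since both were below 1 in all 3 male libraries. These 2 had to be higher in the female libraries to be tested, so their calls and directions are no support for a count. The other 5 were called, Ptges3 higher and Ahr, Arnt, Tiparp and Cyp1b1 lower, and their groups did not overlap, which was also true of 74.1% of all genes tested. In the authors' deposited table a false discovery rate under 0.05 was reached by 25.8% of all 13595 genes and by 3 of the 7 members, Arnt, Tiparp and Cyp1a1. Being called by limma is thus the common state here, and the members differed from each other in size: an absolute log2 difference of at least 1 with a call was reached by Tiparp and Cyp1a1 and by 20.6% of all genes. Ahrr missed that size with the pseudocount of 1 (0.77) and passed it with 0.1 and in edgeR and DESeq2 on the recovered reads (1.44, 1.52 and 1.53). Differences are on the log2(value + 1) scale, female minus male, with limma's standard error (SE) and an adjusted p over all genes tested.

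Of the receptor, its partner and its co-chaperone, none reached an absolute log2 difference of 1. Ahr was weakly expressed, at 25.4, 26.7 and 25.8 in male 4, 5 and 6, and at 22.5, 21.0 and 20.7 in female 4, 5 and 6. Every female library lay below every male one, and none stood apart within its group. The mean was 26.0 ± 0.676 in the male and 21.4 ± 0.953 in the female libraries (SD, n = 3), so that the female level was 82.3% of the male level (log2 difference -0.27, SE 0.08, limma adjusted p 0.0115). This call was lost when values were scaled to the library total (-0.20, limma adjusted p 0.0627), and in the authors' deposited table Ahr had a false discovery rate of 0.703. The gene overlaps the noncoding Gm48236 on the opposite strand.

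Arnt, the subunit shared with HIF, was 1.49-fold higher in the male libraries. It was read at 111, 98.5 and 106 in male 4, 5 and 6 and at 69.7, 68.1 and 74.0 in female 4, 5 and 6. The gap between the groups exceeded the range within either. Its log2 difference was -0.57 (SE 0.07, limma adjusted p 0.000116), and the authors' deposited table also called it, with a false discovery rate of 0.0445. The pseudogene Gm42672 overlaps Arnt on the same strand.

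Ptges3, whose product p23 stabilises the HSP90-bound receptor, was 1.17-fold higher in the female libraries. The male libraries stood at 236, 230 and 242 and the female ones at 258, 281 and 286, in the order 4, 5 and 6. Female 4 was the nearest to the male group. The log2 difference of 0.22 (SE 0.06, limma adjusted p 0.0118) was no longer called without female 5 (limma adjusted p 0.0577). Processed pseudogenes share sequence with Ptges3: 19.6% of its stretches of 50 bases occur in 2 of them, so the value of Ptges3 is uncertain where reads could be split.

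The feedback repressors moved apart. Tiparp, which encodes an ADP-ribosyltransferase that acts on AHR, was abundant in the male libraries, at 394, 809 and 864 in male 4, 5 and 6. In female 4, 5 and 6 it was at 78.8, 75.6 and 74.5. Male 4 was less than the other male libraries but still far above the female group, whose values were close together. The group means were 689 ± 257 and 76.3 ± 2.23 (SD, n = 3), a 9.03-fold higher male level (log2 difference -3.08, SE 0.26, limma adjusted p 1.40e-05). Without male 4 the log2 difference was -3.44. In size it exceeded 98.4% of all genes tested, in either direction. The authors' deposited table gave it a fold change of -9.03 with a false discovery rate of 7.56e-05. Its gene overlaps the pseudogene 4931440P22Rik on the opposite strand, with which it shares 4.04% of its 50-base stretches. Whether the counting used strand is not given in the sources used here.

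Ahrr, the dedicated AHR repressor, was close to the lower limit of the assay. It had 9, 16 and 20 reads in male 4, 5 and 6 and 40, 36 and 36 reads in female 4, 5 and 6. As normalized read counts these were 0.373, 0.610 and 0.706 against 1.66, 1.59 and 1.71. Ahrr was thus higher in each female library than in any male one, at 2.94 times the male mean, and the ratio of the pooled reads had an exact 95% interval of 2.03 to 4.18, which covers counting error only. Its log2 difference was 0.77 (SE 0.12, limma adjusted p 0.000671) and depended on the pseudocount, being 1.44 with 0.1 and 1.52 in edgeR on the recovered reads. In the authors' deposited table its false discovery rate was 0.327.

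Of the CYP1 enzymes, Cyp1a1 was nearly unread in the male libraries. They held 1, 2 and 1 reads of it, fewer than the floor of 3 reads, whereas female 4, 5 and 6 held 196, 142 and 149. The female libraries stood at 8.13, 6.28 and 7.08, and the male ones at 0.0415, 0.0763 and 0.0353. The female group was clear of the male group in every library. From 487 pooled female reads and 4 male reads the ratio was 141-fold, with an exact 95% interval of 54.8 to 521 that covers counting error only. The log2 difference of 2.95 (SE 0.12, limma adjusted p 2.94e-07) is held down by the pseudocount: it was 5.59 with 0.1 and 6.99 in edgeR on the recovered reads, and all of these were called. Even so its female level was modest, at 7.16 ± 0.932 (SD, n = 3). Cyp1a1 shares 3.43% of its 50-base stretches with its neighbour in sequence Cyp1a2, which was not analysed here.

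Cyp1b1, the CYP1 enzyme of mesenchymal and vascular cells, went the other way and had the highest normalized read count of the members in every library, before any account of length. Male 4, 5 and 6 stood at 1545, 1135 and 1147, and female 4, 5 and 6 at 899, 878 and 989. The groups did not overlap, and male 4 was the highest library by a wide margin. The means of 1276 ± 233 and 922 ± 58.7 (SD, n = 3) gave a 1.38-fold higher male level (log2 difference -0.45, SE 0.12, limma adjusted p 0.00971). Without male 4 the difference was -0.31 and remained called (limma adjusted p 0.000567). The authors' deposited table did not call Cyp1b1, with a false discovery rate of 0.259.

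**Figure D2:**
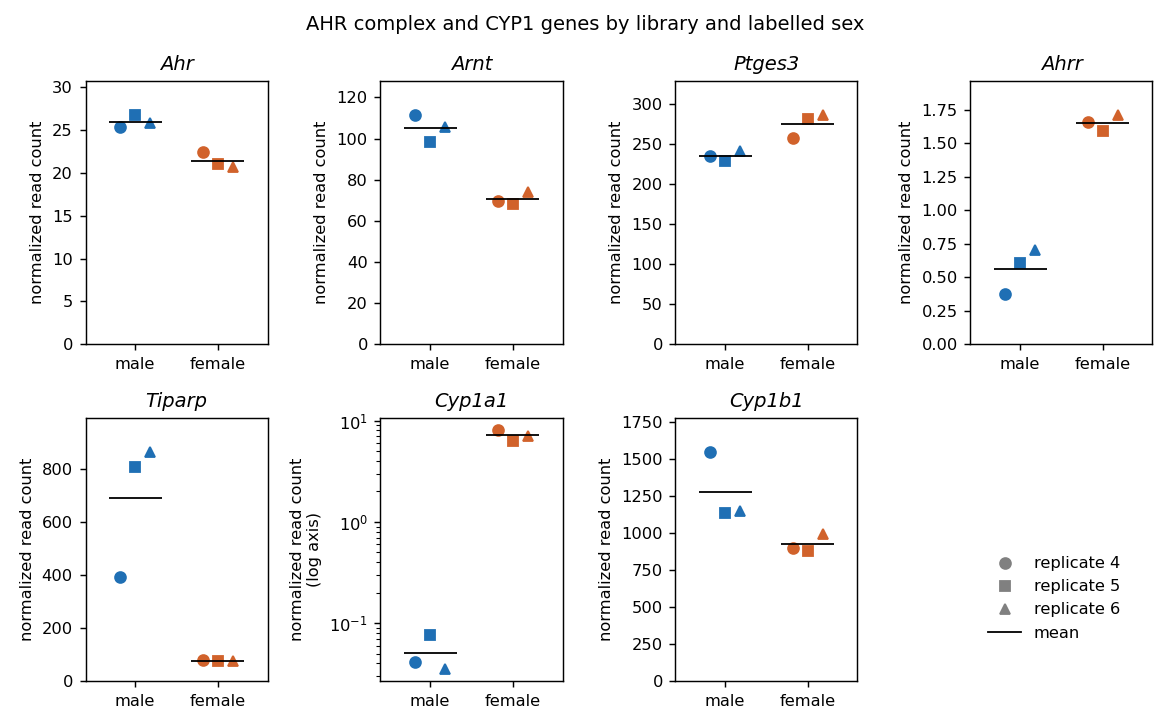
Normalized read count of the 7 genes in each library (vertical axis from 0, except Cyp1a1 on a log axis), male in blue and female in orange, with circles, squares and triangles for replicates 4, 5 and 6 and a line at the group mean. Tiparp and Cyp1a1 show the widest gaps between groups, in opposite directions, and male 4 differs from male 5 and 6 for Tiparp (394) and Cyp1b1 (1545).

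**Figure D3:**
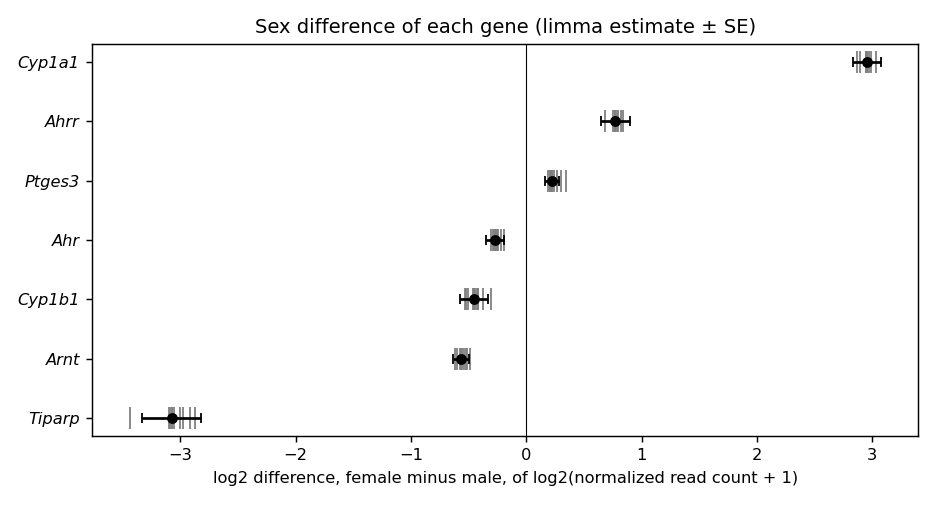
Log2 difference, female minus male, of each gene (horizontal axis); points and bars are the limma estimate ± SE and grey ticks are the estimates under the other filters, scalings, the replicate block and with 1 library left out. Estimates ran from -3.08 for Tiparp to 2.95 for Cyp1a1, and no tick crossed 0.

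Levels of different genes were compared per kilobase of the longest coding transcript in GENCODE M21. In the male libraries Cyp1b1 was at 249 ± 45.5, Tiparp at 164 ± 61.3 and Ptges3 at 118 ± 2.96 normalized read counts per kilobase (SD, n = 3). Tiparp lay below Ptges3 in male 4 and above it in male 5 and 6, so these neighbours could not be ordered. Arnt (24.3 ± 1.49), Ahr (4.68 ± 0.122), Ahrr (0.118 ± 0.0361) and Cyp1a1 (0.0189 ± 0.00819) followed in this order in all 3. In the female libraries the order began with Cyp1b1 (180 ± 11.4) and Ptges3 (138 ± 7.69), and Tiparp, at 18.2 ± 0.532, was close to Arnt at 16.3 ± 0.703. Ahr (3.85 ± 0.172) and Cyp1a1 (2.66 ± 0.345) came next, with Ahrr last at 0.348 ± 0.0125. Tiparp thus stood beside Cyp1b1 and Ptges3 in the male libraries and beside Arnt in the female ones, while Cyp1a1 took the last place in the male libraries and passed Ahrr in the female ones. This male order depended on the length used. With the median coding transcript the order was unchanged in the 3 female libraries and changed in all 3 male ones: Tiparp passed Cyp1b1 in male 5 (322 against 266 per kilobase) and male 6 (344 against 269), and passed Ptges3 in male 4 (157 against 133).

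Ratios of pairs of members within a library do not depend on how libraries were scaled, apart from the pseudocount in their tested log2 differences. Tiparp to Ahr was 15.5, 30.3 and 33.5 in male 4, 5 and 6 and 3.51, 3.60 and 3.61 in female 4, 5 and 6. Cyp1a1 to Ahr was at most 0.00285 in a male library and at least 0.299 in a female one. Arnt to Ahr was 4.38, 3.68 and 4.11 in the male and 3.10, 3.24 and 3.58 in the female libraries. None of these overlapped between the groups, nor did Ahrr to Ahr (0.0147 to 0.0274 against 0.0739 to 0.0828) or Ahrr to Tiparp. Cyp1b1 to Ahr did overlap, at 60.8, 42.5 and 44.5 in male 4, 5 and 6 and 40.03, 41.8 and 47.9 in female 4, 5 and 6. The log2 difference of this ratio was -0.18 (exact permutation test, two-sided, p = 0.4, adjusted over 6 ratios 0.4) and -0.02 without male 4, so that Cyp1b1 and Ahr were not shown to differ from each other in their change. For the other 5 ratios the exact permutation test gave p = 0.1, adjusted 0.12, and 0.1 is the smallest p that 3 against 3 libraries allow.

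**Figure D4:**
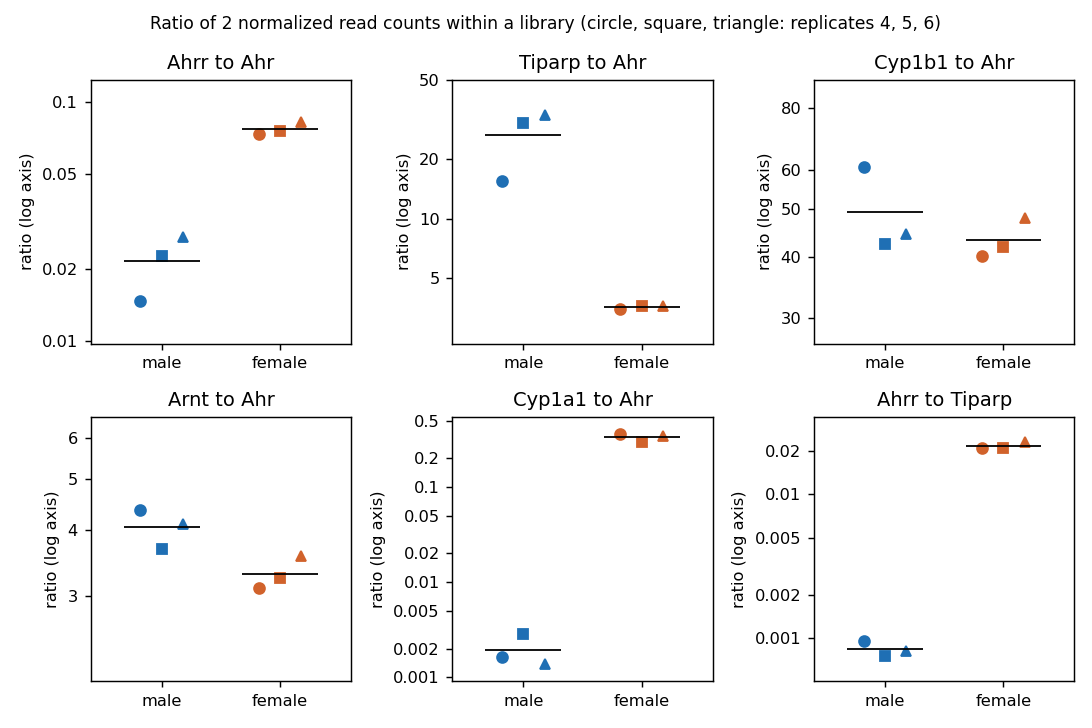
Ratio of 2 normalized read counts within each library (vertical log axes), male in blue and female in orange, circles, squares and triangles for replicates 4, 5 and 6, and a line at the group mean. The groups are apart for 5 ratios and overlap for Cyp1b1 to Ahr, where male 4 (60.8) is highest.

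The pathway around the members was read from 7 lists of genes with 89 names in all, of which 76 were in the table and 74 tested. Of these 55 (74.3%) were called, 22 higher and 33 lower in the female libraries, near the 69.3% of all genes. These counts hold 2 genes whose direction the filter on low values set, Npas2, tested through the male libraries alone, and Macrod2, tested through the female ones alone. The lean to lower values was smaller when values were scaled to the library total, with 29 higher and 31 lower, and with quantile normalization, with 28 and 31. The median log2 difference of the 74 was -0.08, and that of all genes tested was 0.01.

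In the cytosolic complex the inducible HSP90 gene was higher in the female libraries. Hsp90aa1 was at 622, 782 and 719 in male 4, 5 and 6 and at 1605, 1700 and 1681 in the female libraries (log2 difference 1.24, SE 0.09, limma adjusted p 6.23e-06). Every female library lay far above every male one. Src, a kinase of the complex, was higher in the female libraries (0.63), and the constitutive Hsp90ab1 was not called (0.15, limma adjusted p 0.112).

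Among the other bHLH-PAS factors, relatives of AHR and ARNT, 6 of the 9 tested were lower and 1 was higher in the female libraries, beside 69.3% of all genes called. Npas2, one of the 6, passed the filter on low values through the male libraries alone and could only be lower. The HIF subunits that also pair with ARNT were among the lower ones. Epas1, or HIF-2α, stood at 529, 479 and 480 in the male and 114, 117 and 133 in the female libraries (log2 difference -2.02, SE 0.08, limma adjusted p 1.90e-07), and Hif1a had a log2 difference of -2.18. Npas2, a circadian factor below 1 in every female library, differed by a size that depended on the pseudocount (-0.78, or -1.56 with 0.1 and -1.74 in edgeR), and its clock relative Clock was higher (0.91). Arnt2, the paralogue of Arnt, ran from 31.6 to 37.4 in the male and from 26.2 to 33.4 in the female libraries, which overlap, and was not called (-0.18, limma adjusted p 0.170).

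Of 16 coregulators tested, 6 (37.5%) were called, with 3 in each direction, against 69.3% of all genes. Without male 4 it was 9 of 16. The corepressor Nrip1, itself an AHR-regulated gene, was higher in the female libraries (log2 difference 1.16), as was Rb1 (0.62). The coactivator Ncoa1 (-0.74) and the NF-kB subunit Relb (-0.48), an AHR partner, were lower. Values of 10 coregulators did not pass the threshold, among them those of the coactivators Ep300 (0.11, limma adjusted p 0.221) and Smarca4 (0.05, limma adjusted p 0.401). No test of this list against the others was made.

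Other genes known to be induced by AHR differed in both directions. Of 15 tested, 6 were called higher and 8 lower in the female libraries, with a median log2 difference of -0.61. The 93.3% called stand beside 69.3% of all genes, and 34.6% in each direction. Gsta1, a glutathione transferase, was at 1.09 ± 0.249 against 18.1 ± 1.87 (SD, n = 3, male against female), with a log2 difference of 3.19 (limma adjusted p 2.58e-07) that was 3.94 with a pseudocount of 0.1 and 4.02 in edgeR. Cyp2s1, a further dioxin-inducible P450 gene, was at 150, 95.7 and 99.1 in male 4, 5 and 6 and at 6.10, 6.59 and 7.74 in female 4, 5 and 6 (-3.87, SE 0.17, limma adjusted p 3.88e-07). Its direction was that of Cyp1b1 and opposite to that of Cyp1a1, and the groups were far apart. Ugt1a7c (-2.16) and Ugt1a6a (-1.61), which conjugate CYP1 products, were lower. The Ugt1a genes share exons, so the authors' counting could split their reads, and Gsta1 has close paralogues.

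Genes of electron and heme supply to P450 enzymes also differed in both directions. Por, the reductase that every microsomal P450 needs, was at 880, 954 and 949 in male 4, 5 and 6 and at 314, 310 and 321 in female 4, 5 and 6 (log2 difference -1.55, SE 0.06, limma adjusted p 1.98e-07). The female libraries, which held the Cyp1a1 reads, thus had the lower Por level. Alas1, the first enzyme of heme synthesis, was higher there (0.84), as was the cytochrome b5 reductase Cyb5r1, at 20.8 ± 2.52 against 43.9 ± 2.73 (SD, n = 3, male against female), and the heme-binding Pgrmc2 was lower (-0.65). Of the 11 genes of this list 6 were called higher and 3 lower (81.8%), against 69.3% of all genes.

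**Figure D5:**
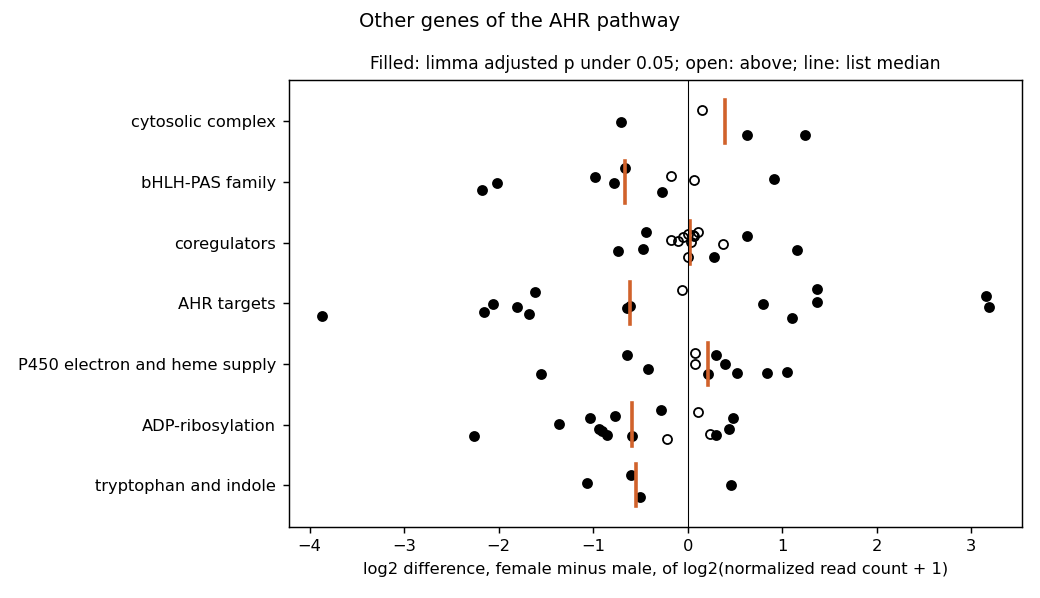
Log2 difference, female minus male (horizontal axis), of the 74 tested genes in 7 lists; each point is a gene, filled where limma called it, and the orange line is the list median. AHR targets spread from -3.87 (Cyp2s1) to 3.19 (Gsta1, with the pseudocount of 1), and 10 of 16 coregulators are open points.

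Genes whose profile lay nearest to that of a member were found by the distance of centred log2(value + 1) over the 6 libraries, among 10324 tested genes with a mean of at least 5. Nearest to Tiparp were Dbp, Car9 and Nmnat2, at distances of 0.27, 0.33 and 0.48. They shared the dip in male 4: Car9, the hypoxia-induced carbonic anhydrase IX, was at 9.87, 22.2 and 24.7 in male 4, 5 and 6 and at 1.41, 0.751 and 1.14 in female 4, 5 and 6. Nearest to Cyp1b1 were Spred1, Tenc1 and Fam168a, at distances of 0.08, 0.10 and 0.11, all with their highest value in male 4. None is given for Cyp1a1, whose difference on this scale is set by the pseudocount. Ahr was nearest to Rab5c, Cd63 and Tmem39b, at 0.05, 0.07 and 0.07. With 6 libraries in 2 groups, a like difference between the groups is enough for a short distance.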

How the data were processed

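Poly(A) RNA was sequenced in 6 libraries. The submitters' processing notes name Bowtie2, RSEM, edgeR and the build mm39, with no role or version. The authors' deposited table gives a signal per gene and library, a normalized read count. In every library 100% of values were whole multiples (within 0.01) of the smallest value above 0, and dividing by it recovered the reads. Per the file headers, the same table holds a signed fold change of female against male, used as a score, with its p-value and false discovery rate as computed by the authors. Columns were matched to samples by title, and 0 columns were left over.

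Values were tested with limma 3.58.1 (R 4.3.3, eBayes with trend) on log2(value + 1) over genes at 1 or more in at least 3 libraries, with Benjamini-Hochberg adjustment and a threshold of 0.05. Because the values were normalized, edgeR 4.0.16 and DESeq2 1.42.0 on recovered reads served as alternatives, beside another pseudocount, filters, scalings, the replicate block and each library left out. The fits were tested on simulated reads. Members and lists were chosen with earlier results of these data known. All members are named. Of each pathway list the called genes with the smallest adjusted p, up to 4, are named, except 1 that is not reported here, and other genes were chosen after their values were seen. Lists were matched by symbol or RefSeq synonym. Gene lengths and shared 50-base stretches came from GENCODE M21 (GRCm38), another build than the authors', and protein sequences were not used here.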

Additional observations from a re-analysis of the deposited data

How the results depend on the processing

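All 103 values recomputed for the 7 genes kept their sign, and 101 kept their side of the threshold. The values of Cyp1a1 and Ahrr are counted here but are no support, since both passed the filter on low values through the female libraries alone. The exceptions were Ahr scaled to the library total (-0.20, limma adjusted p 0.0627) and Ptges3 without female 5 (0.20, limma adjusted p 0.0577). The cause was not tested. Ptges3 ran from 0.19 to 0.27 over the fits that each left out 1 library. A required absolute log2 difference of at least 1, chosen after seeing the data, by its construction left 2589 of 8704 genes, 2 of the 7 members, Tiparp and Cyp1a1, the latter tested through the female libraries alone, and 21 of 55 pathway genes. Taking the median transcript length left the order of the members unchanged in 3 of 6 libraries, the female ones. Cyp1a1 and Ahrr have no value with at least 10 reads in every library, which removes them. With the replicate block 8314 genes were called, and the 5 members that passed the filter on low values in both groups stayed called. Replicate numbers were not taken as a pairing, since deviations of same-numbered libraries correlated at -0.09, -0.03 and -0.17 across genes. Of 404 values for the 27 pathway genes that the naming rule chose, 402 kept call and direction, and the other 2, both of Ccbl2, lost the call. The rule took called genes with the smallest adjusted p in these same libraries, so a high share was built in and is no support. Npas2, one of the 27, passed the filter on low values through the male libraries alone. Depth limits Cyp1a1 in the male libraries, where 3 reads correspond to 0.106 to 0.124.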

Other observations

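Genes of ADP-ribosylation, the PARP relatives of Tiparp and hydrolases that remove ADP-ribose, differed in both directions, with 9 of 15 tested genes lower and 3 higher in the female libraries (median log2 difference -0.59). The 12 of 15 called stand beside 69.3% of all genes tested, 34.6% in each direction, and no test against other genes was made. Macrod2, among the higher ones, passed the filter on low values through the female libraries alone. Parp8 was at 167, 126 and 129 in male 4, 5 and 6 and at 26.4, 26.7 and 32.0 in female 4, 5 and 6, a log2 difference of -2.26 (SE 0.12, limma adjusted p 1.18e-06). It did not share the dip of Tiparp in male 4. The interferon-inducible Parp9 was also lower (-1.36), as were Parp6 (-0.59) and Parp16 (-0.86). Zc3hav1, the antiviral zinc-finger relative with the same CCCH fold as Tiparp, went the other way (0.48, limma adjusted p 0.00262).

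Enzymes that make or convert tryptophan-derived AHR ligands were sparse. Of 11 listed, 4 were in the table and all 4 were called, 3 lower and 1 higher in the female libraries, where 69.3% of all genes were called. Sult1a1, a sulfotransferase of the family that forms indoxyl sulfate, was at 5.43, 6.83 and 6.25 in male 4, 5 and 6 and at 2.49, 2.52 and 2.23 in female 4, 5 and 6 (log2 difference -1.07, SE 0.12, limma adjusted p 6.31e-05). The kynurenine aminotransferase genes Ccbl1 (-0.60) and Ccbl2 (0.46) moved in opposite directions, and the formamidase gene Afmid was lower (-0.50).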
